A study of Mus musculus with 2 samples.

Results

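The genes described are the Wnt ligands, their Frizzled (Fzd) receptors and the secreted modulators of the Sfrp, Rspo and Dkk families, read through open chromatin in mouse calf muscle. Members were chosen by symbol alone: every protein-coding gene of the GENCODE annotation of mm10 named Wnt, Fzd, Sfrp, Rspo or Dkk followed by a number. The rule found 41 of 21938 protein-coding genes, made up of 19 Wnt, 10 Fzd, 4 Sfrp, 4 Rspo and 4 Dkk genes. The data are DNase-seq libraries of gastrocnemius, the large muscle of the calf, in which DNase I cuts DNA that is not covered by nucleosomes and the cut ends are sequenced. There were 2 libraries, replicates 1 and 2 of 1 group: female B6CASTF1/J mice, a hybrid of C57BL/6J and CAST, aged 14 days and with no treatment named. No second group exists, so each value was set beside the other replicate and beside all protein-coding genes.

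Each replicate is a separate tissue sample under 1 shared donor record, and both descriptions name 3 females, without saying whether tissue was pooled. The instrument is named for replicate 2 only, so a difference of instrument cannot be told apart from one of replicate. The strict peak lists held 87558 peaks in replicate 1 and 79562 in replicate 2, with a median signal of 1.53 in each. Signal is the authors' value per peak, and its scaling is not stated. Promoters of all 10 fibre markers carried a strict site in both replicates, as did those of 6 of 6 endothelial, 4 of 4 pericyte and smooth muscle, 4 of 5 fibro-adipogenic and 2 of 3 tendon markers. Of the satellite cell markers 2 of 4 did, Pax7 and Calcr having a strict peak in replicate 1 only, and of the Schwann cell markers 1 of 3, while 0 of 4 macrophage and 0 of 3 hepatocyte markers did. The 3 neuron markers also carried one, as did 32 of all 45 markers and 63.7% of all protein-coding genes. An open promoter in this tissue is thus not by itself a mark of cell type. In bulk tissue, few cells with an open site and a weakly open site in many cells cannot be told apart.

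Wnt proteins are lipid-modified secreted ligands that bind Frizzled receptors on the cell surface, together with a co-receptor. In the canonical branch this protects beta-catenin from destruction, and beta-catenin then joins TCF/LEF factors on DNA, while other branches act on cell polarity and calcium. Sfrp proteins bind Wnt ligands outside the cell, Dkk proteins such as Dkk1 block the Lrp5 and Lrp6 co-receptors, and R-spondins bind Lgr receptors and keep Frizzled at the surface by restraining the ligases Znrf3 and Rnf43. In skeletal muscle the pathway is known for its part in embryonic myogenesis, in satellite cells and in the interstitial cells that turn fibrotic.

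The sequences below come from the mm10 reference (GRCm38, RefSeq), plus strand, and show the open elements on which the results turn. The first 5 are the strongest distal sites of each family that lay outside exons and held a footprint in both replicates, a footprint being a short stretch inside an open site that is protected from cutting. Capitals mark the bases of footprints shared by both replicates.
Wnt7b, chr15:85600481-85600680: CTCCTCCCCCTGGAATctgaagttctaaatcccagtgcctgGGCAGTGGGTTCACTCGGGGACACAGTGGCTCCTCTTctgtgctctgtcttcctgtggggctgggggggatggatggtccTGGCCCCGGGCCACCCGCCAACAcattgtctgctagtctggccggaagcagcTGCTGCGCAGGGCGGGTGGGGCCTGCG
Fzd9, chr5:135286341-135286500: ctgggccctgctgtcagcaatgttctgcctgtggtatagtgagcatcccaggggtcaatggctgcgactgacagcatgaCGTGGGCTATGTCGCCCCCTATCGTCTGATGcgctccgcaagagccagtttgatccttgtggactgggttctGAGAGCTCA
Sfrp2, chr3:83764341-83764540: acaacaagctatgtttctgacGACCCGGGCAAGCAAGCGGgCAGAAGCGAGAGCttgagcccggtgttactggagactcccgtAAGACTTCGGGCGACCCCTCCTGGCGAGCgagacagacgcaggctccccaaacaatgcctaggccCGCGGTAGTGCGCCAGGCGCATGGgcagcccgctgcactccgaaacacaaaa
Rspo3, chr10:29532901-29533080: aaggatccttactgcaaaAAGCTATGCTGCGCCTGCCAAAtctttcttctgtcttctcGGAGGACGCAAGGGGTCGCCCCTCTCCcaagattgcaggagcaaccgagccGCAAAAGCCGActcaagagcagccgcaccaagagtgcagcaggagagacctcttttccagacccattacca
Dkk3, chr7:112183321-112183520: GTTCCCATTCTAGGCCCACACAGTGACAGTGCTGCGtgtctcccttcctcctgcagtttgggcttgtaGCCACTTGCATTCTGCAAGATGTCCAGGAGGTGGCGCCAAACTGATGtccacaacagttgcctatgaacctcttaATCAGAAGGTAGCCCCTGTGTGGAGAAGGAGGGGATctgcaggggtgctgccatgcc
The footprints of the Wnt7b element took up 103 of its 200 bases, and those of the Dkk3 element 119 of 200. The printed Fzd9 element had 40 footprint bases of 160, the Sfrp2 element 85 of 200 and the Rspo3 element 60 of 180. One Dkk3 footprint overlaps a match to the core of the CTCF motif.

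For receptors and ligands the strongest promoter site that belonged to 1 gene and lay outside exons is shown as well, with the same meaning of capitals. These were picked after their values had been seen.
Fzd7, chr1:59481891-59482190: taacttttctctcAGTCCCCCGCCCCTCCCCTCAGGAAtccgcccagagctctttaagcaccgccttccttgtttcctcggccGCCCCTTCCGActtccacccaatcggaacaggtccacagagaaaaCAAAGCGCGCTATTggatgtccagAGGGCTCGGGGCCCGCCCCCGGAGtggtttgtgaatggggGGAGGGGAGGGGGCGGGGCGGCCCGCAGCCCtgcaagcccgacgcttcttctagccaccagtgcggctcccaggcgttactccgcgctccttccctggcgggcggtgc
Wnt11, chr7:98837981-98838180: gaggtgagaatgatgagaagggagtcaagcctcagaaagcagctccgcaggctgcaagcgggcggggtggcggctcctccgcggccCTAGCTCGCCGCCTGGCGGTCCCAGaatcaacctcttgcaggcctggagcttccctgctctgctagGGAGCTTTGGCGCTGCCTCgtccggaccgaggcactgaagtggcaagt
The Fzd7 stretch is the middle 300 bases of a site of 320 and holds 5 shared footprints, some of them over the SP/KLF letters GGGCGG. The Wnt11 stretch lies in an intron of Wnt11 and holds 2 shared footprints.

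The receptors were the most uniformly open family. All 10 Fzd genes had a promoter site shared by both replicates, where a promoter site is a strict peak with its midpoint within 1 kb of a transcription start site (TSS) and shared means that peaks of both replicates overlapped by at least 1 bp. Of the 19 Wnt genes 9 had one (47.4%), as had 3 of 4 Sfrp, 2 of 4 Rspo and 2 of 4 Dkk genes. Together that made 26 of 41 members (63.4%), against 63.7% of all protein-coding genes. With the strict lists the total is thus at the background, and the families differed within it. With only the stronger 50% of peaks 17 members had one, against 12420 of 21938 genes. With the permissive lists 32 had one, against 14935 genes. These are counts of genes in 1 group, and no test was made of them.

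**Figure D1:**
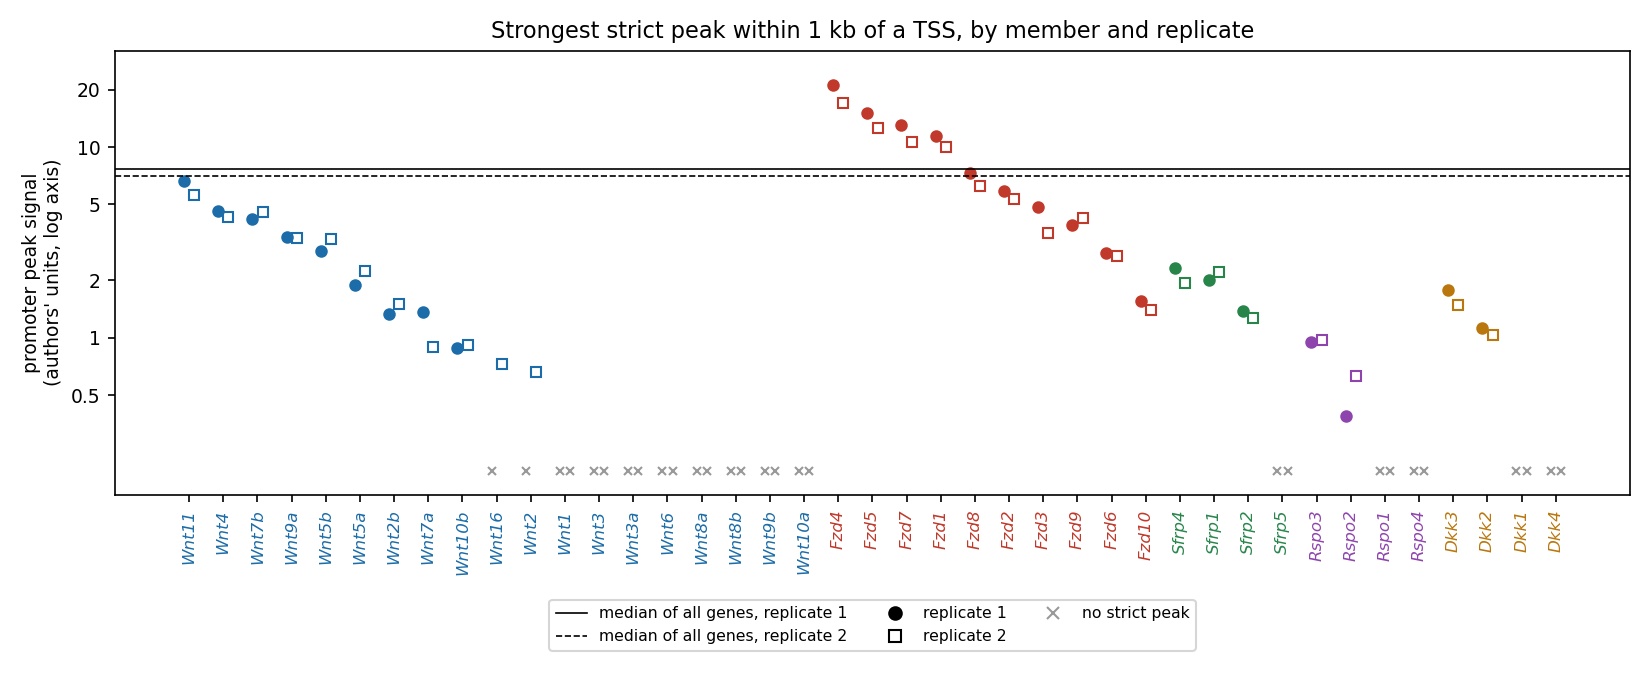
Signal of the strongest strict promoter peak of each of the 41 members (log axis, authors' units), filled circles for replicate 1 and open squares for replicate 2, coloured by family, with crosses where a replicate had no strict peak. Lines mark the medians of all genes with a strict promoter peak, 7.69 and 7.05. Only Fzd4, Fzd5, Fzd7 and Fzd1 lie above both lines.

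Among the receptors, Fzd4, which also serves as the receptor of Norrin in vessel growth, had the highest signal, with 21.1 in replicate 1 and 17.0 in replicate 2. That placed it above 91.3% and 90.3% of the genes with a strict promoter peak. Its strongest site lay only 19 bp from the start of Tmem135, which is transcribed the other way, so the signal belongs to both genes. Fzd5 followed with 15.04 and 12.6, Fzd7, known as a receptor on satellite cells, with 13.03 and 10.6, and Fzd1 with 11.4 and 10.04. These 4 were the only members above the all-gene medians of 7.69 and 7.05 in both replicates. Between them the order of these receptors was the same in both replicates. The strongest Fzd5 site, 0.13 kb upstream of its TSS, lay in an exon of the non-coding Gm38058.

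The other receptors spanned a wide range. Fzd8 had 7.29 and 6.22, Fzd2 had 5.89 and 5.37, and Fzd3, a receptor of the planar polarity branch, had 4.88 and 3.54. Fzd9 had 3.92 and 4.23, so that Fzd3 and Fzd9 changed places between replicates. Fzd6, another planar polarity receptor, had 2.77 and 2.69. Fzd10 was last with 1.56 and 1.40, at percentiles 12.1 and 10.1 of genes with a promoter peak. Its only promoter site lay 0.103 kb upstream of its TSS but 48 bp from the start of the non-coding 5930412G12Rik. The family median was 6.59 and 5.80, close to the all-gene median. For the Wnt genes it was 2.85 over 9 genes in replicate 1 and 2.25 over 11 genes in replicate 2. Wnt2 and Wnt16, with a strict peak in replicate 2 only, enter the second value alone, so the 2 Wnt medians are over unlike sets.

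Several Frizzled genes were open over a stretch and not at a single point. Fzd1, Fzd2, Fzd4, Fzd7 and Fzd8 each had 3 or more shared promoter sites, 5 of 10 receptors. Among all members with a shared promoter site 7 of 26 had as many (26.9%), against 20.4% of all such genes. Fzd7 had 5. Within 1 kb on either side of the TSS, all 2001 bases of Fzd7 and of Fzd4 were listed with a cut-rate false discovery rate (FDR) below 0.05 in both replicates.

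Part of this stretch was coding sequence. Fzd1, Fzd2, Fzd5, Fzd7 and Fzd8 held 14 shared sites with the midpoint in their own coding exon, 5 of them promoter sites and 9 distal. Their signal ranged from 0.601 to 4.62 in replicate 1 and from 0.818 to 4.84 in replicate 2, with a median of 1.36 in each. They were broad, with a median width of 340 bp against 180 bp for the other distal sites of members. The widest, in Fzd5, covered 940 bp, and its midpoint lay 91 bp from the start of the non-coding Gm38058. Widths are those of merged peaks, so a wide site can join several peaks. Only 4 of the 14 held a footprint of both replicates. By contrast, 17 of the other 18 distal Fzd sites did.

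The ligand promoters were open in fewer genes and at lower signal. Wnt11, which acts mainly outside the beta-catenin branch, had the highest value with 6.63 and 5.59. That value came from the printed intronic site, 0.764 kb upstream of the downstream start of Wnt11, while the site at the first start had 2.24 and 1.93. Wnt4, a ligand with roles in muscle patterning and kidney, had 4.62 and 4.31 at a single site 0.178 kb upstream of its TSS. Wnt7b had 4.21 and 4.59, Wnt9a had 3.36 and 3.34, and Wnt5b had 2.85 and 3.30. Wnt7b was below Wnt4 in replicate 1 and above it in replicate 2, so these neighbours do not differ beyond the spread.

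The remaining open ligands were weak. Wnt5a, the best known non-canonical ligand, had 1.88 and 2.25, but these are values of different sites. The site that was strongest in replicate 2, at chr14:28506561-28506800, had 1.58 in replicate 1. The gene had 6 shared promoter sites, the most of any member, but also has 6 annotated starts. Its start at chr14:28504750 had 3 sites within 1 kb, whereas Fzd7 had 5 at 1 start. Wnt2b had 1.34 and 1.51. Wnt7a, which expands satellite cells through Fzd7, had 1.36 and 0.891, and Wnt10b, which restrains fat cell formation, had 0.883 and 0.911. The Wnt10b site lay in a coding exon, 0.462 kb downstream of an internal start. Its outermost start had no shared site within 1 kb. Wnt7a stood at percentiles 10.2 and 4.33 of genes with a promoter peak. So the receptor of this pair was among the stronger members and the ligand among the weaker.

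Signal also differed between alternative starts of Wnt5b and Wnt7b, as it did in Wnt11. In Wnt5b the start of Wnt5b-201 carried 2.85 and 3.30, and the far upstream start of Wnt5b-204 carried 0.883 and 0.877. In Wnt7b only the outermost of 6 starts, that of Wnt7b-205, had a site within 1 kb. That site lies 0.748 kb upstream, in an exon of the non-coding AU022754, and the single Wnt7a site lies 0.558 kb upstream in an exon of the non-coding Gm30437. With a promoter window of 500 bp these were the 2 members that no longer counted as open, which left 24.

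The secreted modulators were weak where open. Sfrp4 had 2.32 and 1.93, Sfrp1 had 2.01 and 2.21, and Sfrp2, which fibroblasts of muscle interstitium are known to express, had 1.38 and 1.27 over a single site of 920 bp. Sfrp4 and Sfrp1 changed places between replicates. Dkk3, the divergent member of the Dkk family, had 1.79 and 1.49, and Dkk2 had 1.13 and 1.03. Rspo3, an R-spondin known from vessels, had 0.947 and 0.977. Rspo2, which takes part in limb and muscle development, had 0.389 and 0.631, the lowest strict promoter signal of the members in both replicates. With 50% reciprocal overlap of the peaks Rspo2 was no longer shared.

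Signal in the 2 replicates was of similar size. Of the 26 members with a value in both, 17 were higher in replicate 1 and 9 in replicate 2. At the 52 shared promoter sites, signal in replicate 2 relative to replicate 1 differed by a median of -0.03 on the log2 scale and by -0.66 to 0.70 at most, so that every site was within 2-fold, as were 99.4% of all shared sites. Over all 68349 shared sites of the genome the median was -0.14.

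The 15 promoters without a shared site were of 3 kinds. Wnt2 and Wnt16 had a strict peak in replicate 2 only, of 0.658 and 0.731. Wnt1, Wnt3, Wnt6, Wnt9b, Wnt10a, Rspo1, Rspo4 and Dkk1 had a peak in the permissive list of at least 1 replicate but none in a strict list. Wnt3a, Wnt8a, Wnt8b, Sfrp5 and Dkk4 had no peak in any list, and no base near their starts was listed with an FDR below 0.05. In both permissive lists together 32 members had a promoter peak, against 68.3% of all protein-coding genes. This included 13 of the 19 Wnt genes.

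No strict peak held a smallest FDR above 0.000997 in replicate 1 or 0.000998 in replicate 2. At the promoter of Wnt1, a ligand of the midbrain and of early myogenesis, the smallest FDR was 0.00108 in replicate 1 and 0.00405 in replicate 2. Its permissive peak had a signal of 1.53 and 1.59, higher than the strict signal of Wnt10b or of Rspo2. Of the members with a strict peak, Rspo2 reached an FDR of 0.00051 and Rspo3 one of 0.000506 in replicate 1. A value this low did not always come with a strict promoter peak: Rspo4 reached 0.000295 and 0.000796, Rspo1 reached 0.00061 and Wnt2 0.000631 in replicate 1, and Wnt6 reached 0.000678 in replicate 2, each with no strict promoter peak in that replicate.

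Promoters without a shared site were often rich in CpG, the dinucleotide that is dense at most broadly active promoters. Of 30 members whose TSS was rich in CpG (GC content of at least 50% and an observed over expected CpG ratio of at least 0.6 in 1 kb), 23 had a shared promoter site, or 76.7%. Of all genes that were CpG-rich by this measure, 94.8% had one. The 7 exceptions were Wnt2, Wnt3, Wnt3a, Wnt6, Wnt9b, Sfrp5 and Rspo1. Wnt3a, with 70.0% GC and a CpG ratio of 0.748, and Wnt6, with 70.0% and 0.738, were as rich as the open Fzd4 with 66.2% and 0.749. All 10 Fzd promoters were CpG-rich and open, and of the 14 CpG-rich Wnt genes 9 had a shared promoter site. Among members without a shared promoter site 46.7% were CpG-rich, against 6.61% of all genes without one.

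**Figure D2:**
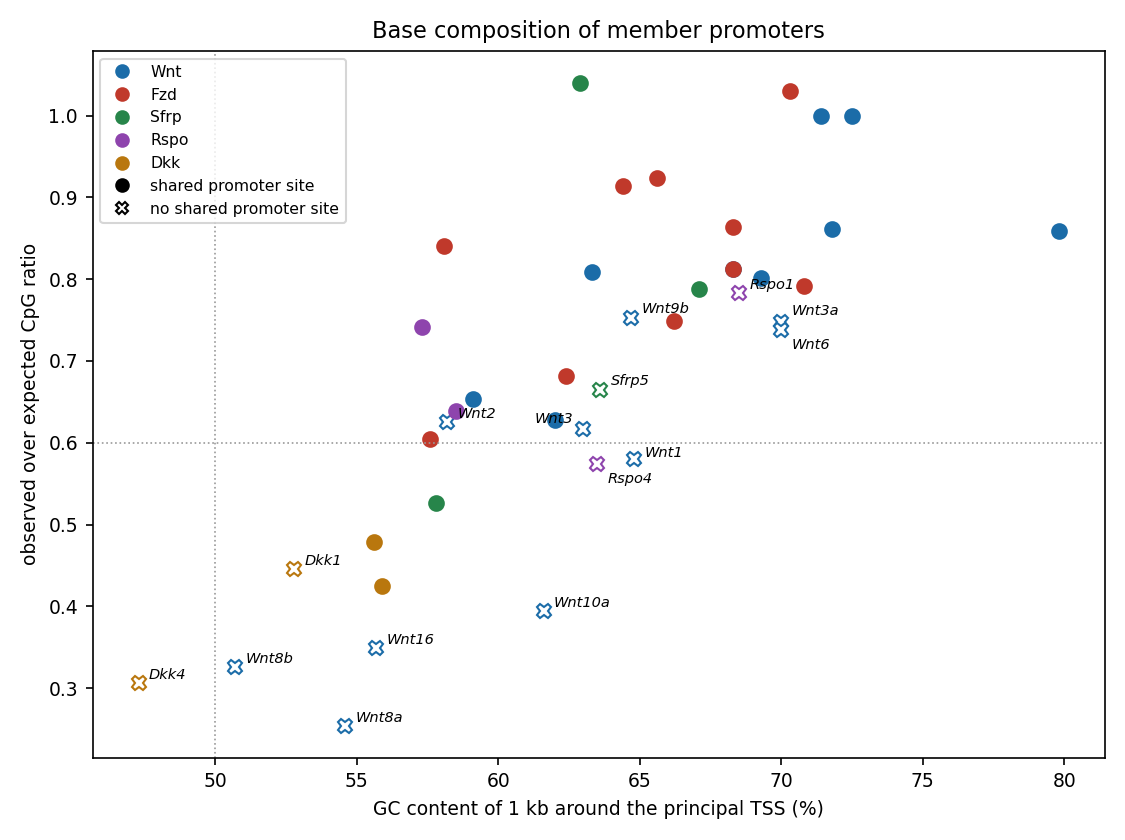
GC content and observed over expected CpG ratio in 1 kb around the principal TSS of each member, coloured by family. Filled circles have a shared promoter site and open crosses, which carry gene names, have none, and dotted lines mark 50% GC and a ratio of 0.6. The 7 named genes right of and above the lines, among them Wnt3a, Wnt6 and Rspo1, lie among the filled circles.

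Away from the promoters, the ligands held most of the open sites. Distal sites are shared sites farther than 1 kb from every protein-coding TSS, given to the gene of the nearest such TSS within 50 kb. The members had 121, of which the Wnt genes had 77, the Fzd genes 27, the Dkk genes 10, the Sfrp genes 5 and the Rspo genes 2. At least 1 was found for 32 of 41 members (78.0%), against 49.2% of all protein-coding genes. Members also had more room, a median of 68.3 kb nearest to them against 40.7 kb for all genes. Per Mb of this territory the members had 45.5 sites against 26.2 for all genes, with 68.3 for Wnt, 38.8 for Fzd and 5.74 for Rspo. Nearness does not show that a site acts on the gene.

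**Figure D3:**
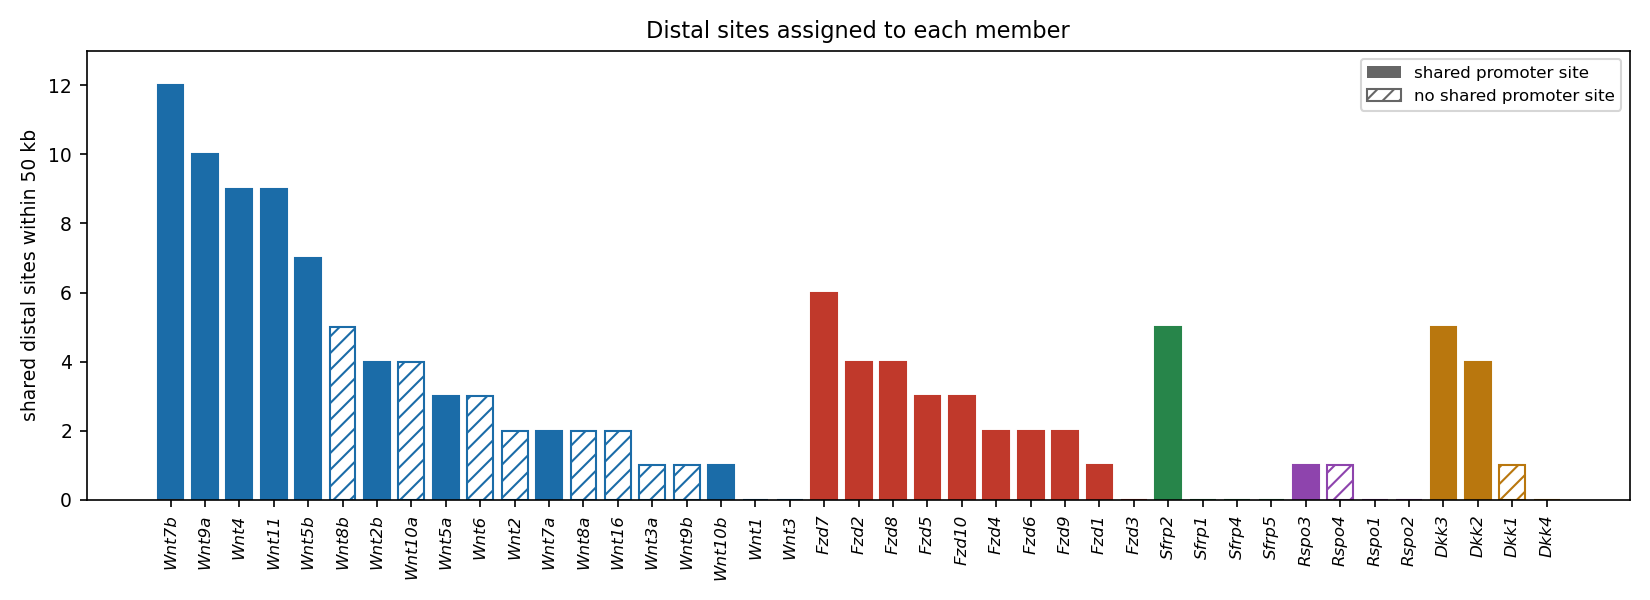
Number of shared distal sites assigned to each of the 41 members, ordered within families, with filled bars for members with a shared promoter site and hatched bars for those without. Wnt7b has 12, Wnt9a 10, and Wnt4 and Wnt11 have 9 each, and the hatched Wnt8b has 5 and Wnt10a 4.

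Sites were concentrated at a few ligands. Wnt7b had 12, Wnt9a 10, Wnt4 and Wnt11 9 each and Wnt5b 7, and Fzd7 led the receptors with 6. The members with none were Wnt1, Wnt3, Fzd3, Sfrp1, Sfrp4, Sfrp5, Rspo1, Rspo2 and Dkk4. By position, 64 of the 121 were intergenic, 31 lay in an intron of the member, 23 in an exon and 3 in an intron of another gene. Of all of them 59 were upstream of the nearest start and 55 within 10 kb of it.

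The Wnt7b sites all lay upstream of the gene, between 1.24 and 43.4 kb from its outermost start. A group of 4 stood between 16.6 and 18.1 kb and another of 4 between 28.5 and 31.6 kb. The printed element, 18.1 kb upstream, was the strongest distal site of the members, with 14.9 in replicate 1 and 13.1 in replicate 2. The strongest of the farther group, at chr15:85610701-85611220, had 11.4 and 7.90 over 520 bp and held 8 shared footprints. Both exceeded the Wnt7b promoter itself. The 12 sites held 34 shared footprints.

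Wnt9a and Wnt4 showed the opposite layout, with sites inside the gene. Of the 10 Wnt9a sites 8 lay in its introns, and the strongest, 1.07 kb downstream of the TSS, had 6.81 and 7.58, above its promoter value of 3.36 and 3.34. The next, 2.32 kb downstream, had 6.28 and 5.62. In Wnt4, 6 of 9 sites were intronic, and 5 of them stood within 8.6 to 10.5 kb of the TSS, none above 2.28 in replicate 1 or 2.53 in replicate 2. Wnt11 had 4 of its 9 upstream, the strongest 19.7 kb away with 6.71 and 5.17. Wnt5b had 5 of 7 in its introns, from 1.02 to 3.55 in replicate 1.

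**Figure D4:**
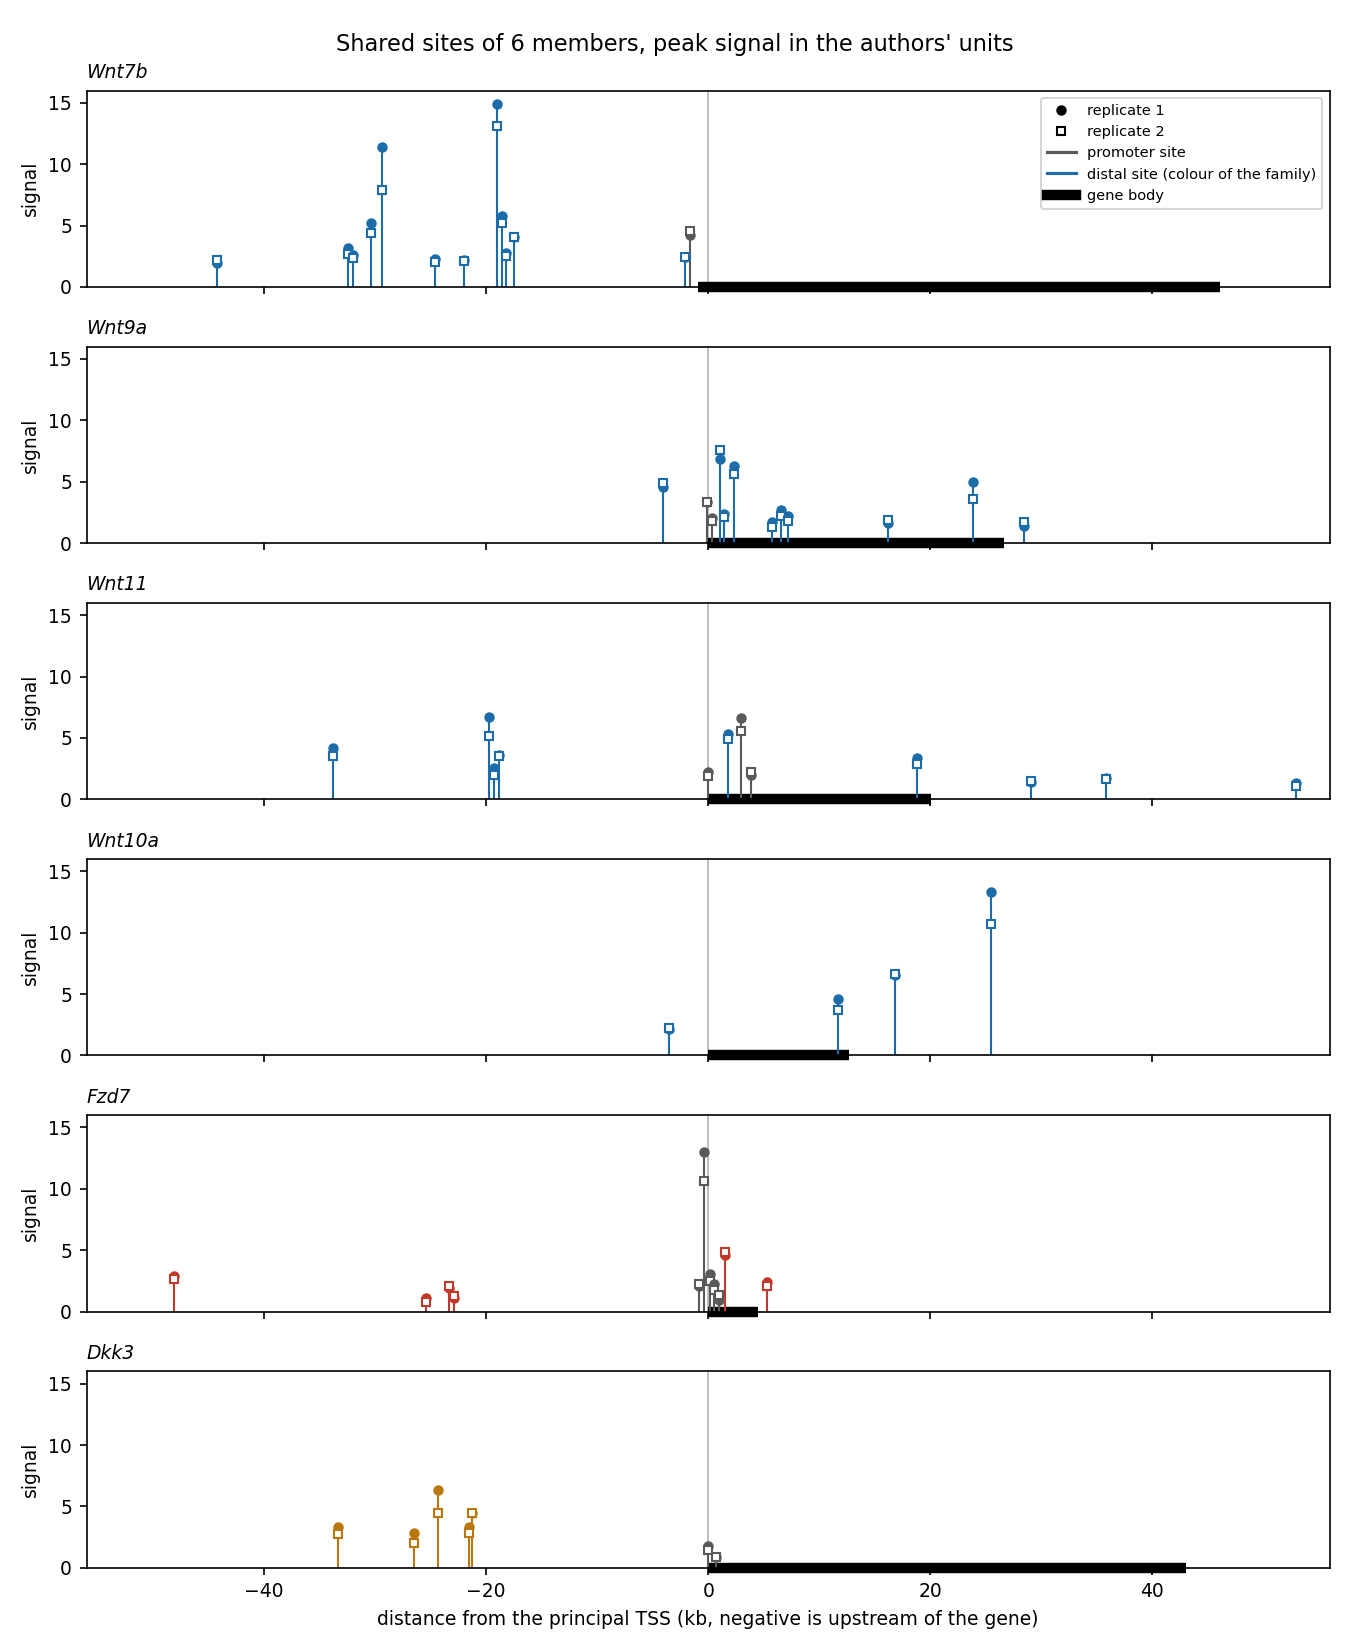
Shared sites of Wnt7b, Wnt9a, Wnt11, Wnt10a, Fzd7 and Dkk3 by distance from the principal TSS (kb, negative upstream), with peak signal in the authors' units for replicate 1 (filled circles) and replicate 2 (open squares). Promoter sites are grey, distal sites take the family colour and the black bar is the gene body. Wnt7b and Dkk3 have their distal sites upstream, Wnt9a mostly inside the gene, and Wnt10a has its strongest site, 13.3 and 10.7, beyond the end of the gene.

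Some ligands with no strict promoter peak had strong distal sites. Of the 8 such Wnt genes, 6 had at least 1, together 16 sites. Over all families 8 of 13 members without a strict promoter peak had one, against 28.1% of all such genes. Wnt10a, a ligand of skin, teeth and fat precursors, had 4. Its strongest, at chr1:74816901-74817100, in intergenic sequence 23.6 kb downstream of the nearest start, had 13.3 and 10.7, and the next, 14.9 kb downstream, had 6.54 and 6.63. Wnt8b, a brain ligand, had 5 sites, the strongest 19.1 kb upstream with 7.13 and 5.13. Wnt6 had a site in its own intron, 1.42 kb downstream of the TSS, with 4.27 and 4.76. Wnt2, whose strict promoter peak was in replicate 2 only, had a distal site 1.31 kb upstream with 3.43 and 2.31. A promoter window of 2500 bp made Wnt2, Wnt6 and Wnt8b count as open and gave 29 members.

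The third of the strongest ligand sites, of Wnt7a at chr6:91440841-91441020, had 11.7 and 10.8. It lay 29.6 kb upstream of Wnt7a but 19 bp from the start of the non-coding gene 4930471M09Rik. Of the 121 sites 6 lay within 1 kb of the start of such a gene. When non-coding genes could also claim a site the members kept 83, the Wnt genes 59 and the Fzd genes 11 of their 27. Wnt2b had a pair of strong sites, 31.0 kb upstream with 9.29 and 7.81 and 6.22 kb upstream with 8.46 and 8.11, against its promoter value of 1.34 and 1.51.

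In all, 9 of the 121 member sites were in the strongest 5% of shared distal sites in both replicates. By definition about 5% of all such sites pass in each replicate, and the share passing in both was not computed. All 9 belonged to Wnt genes, which held 77 of the 121. Of the 9, Wnt2b, Wnt7b, Wnt9a and Wnt10a had 2 each and Wnt7a had 1. Receptor sites were weaker. The strongest, in the coding exon of Fzd7 at chr1:59483841-59484020, had 4.62 and 4.84. The printed Fzd9 element, 35.2 kb upstream, had 4.23 and 4.42, and a site in the Fzd8 coding exon on chromosome 18, 1.41 kb downstream of the start, had 3.65 and 3.57.

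Among the modulators, Dkk3 had 5 distal sites, all intergenic and 21.3 to 33.4 kb upstream. The printed one had 6.35 and 4.48, the next, at chr7:112180261-112180420, had 4.47 in each replicate, and the third, at chr7:112180501-112180700, had 3.33 and 2.84. All 5 were above the Dkk3 promoter in both replicates. Sfrp2 held all 5 sites of its family. The printed element, 1.88 kb upstream, had 4.74 and 4.27, the next, at chr3:83797941-83798120, had 2.84 and 2.93, and the third, at chr3:83740401-83740600, had 1.33 and 0.678. The R-spondins had the printed site in an intron of Rspo3 with 3.31 and 3.18, which exceeded its promoter, and one in an intron of Rspo4, at chr2:151866621-151866800, with 1.63 and 1.502.

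Neighbouring ligands formed 4 pairs, and their promoters did not share a state in every case. Wnt3a and Wnt9a start 16.2 kb apart and point away from each other: Wnt9a was open with 10 distal sites, and Wnt3a had no peak and 1 distal site. Wnt1 and the outermost start of Wnt10b lie 11.7 kb apart, also divergently, with Wnt10b open only near internal starts and Wnt1 in the permissive lists only. Wnt3 and Wnt9b, 24.3 kb apart, were both without a strict promoter peak, with 1 shared site between the starts. Wnt6 and Wnt10a, 19.6 kb apart on the same strand, were both without one too, but had 3 and 4 distal sites.

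Footprints shared by both replicates numbered 334 in the member sites, 93 in promoter sites and 241 in distal sites. The Fzd promoters held 50 of the 93, in 23 of the 52 promoter sites. Per kb of promoter site that was 7.87, against 6.67 for all members and 10.5 for all protein-coding genes. Fzd4, with 8, had the most of any member, in sites that it shares with Tmem135. Of the 26 members with a shared promoter site 24 had a shared footprint there, or 92.3%, against 97.9% of all genes with a shared promoter site. The 2 without were Rspo2 and Rspo3. Of the distal sites 106 of 121 held one (87.6%), against 91.9% of all shared distal sites within 50 kb. Sharing sets these numbers: replicate 2 alone listed 527 footprints in its own member sites and replicate 1 alone 590.

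Letters of known motifs were sought on both strands in the 150 bp around each distal midpoint. The TCF/LEF core CTTTGA, the sequence through which beta-catenin partners bind, was in 10 of 121 (8.26%), against 7.31% of all distal sites, and 3 of the 10 matches overlapped a shared footprint. The genes were Wnt5a, Wnt5b, Wnt9a, Wnt11 with 2 sites, Fzd4, Fzd6, Sfrp2, Dkk2 and Dkk3. The muscle E-box CAGCTG was in 27 (22.3%, against 24.7%), and the MEF2 motif was in none (0.563% of all). The SP/KLF letters GGGCGG were in 20 (16.5%, against 11.5%), the AP-1 letters TGANTCA in 11 (9.09%, against 7.67%) and the TEAD letters GGAATG in 10 (8.26%, against 9.87%). The core of the CTCF motif was in 17 (14.0%, against 15.7%), spread over 14 genes, and all 17 matches overlapped a shared footprint. Overlap of matches with footprints was counted at member sites only. No share over all distal sites stands beside these overlaps, so they are not shown to be particular to the members. Matches describe letters and do not show binding.

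The 3 strongest distal sites with the TCF/LEF core in these 150 bp are printed because the core is the pathway's own binding motif, here at a ligand and at members of the Dkk family. Here the capitals mark the core, CTTTGA or its reverse TCAAAG.
Wnt11, chr7:98836781-98836960: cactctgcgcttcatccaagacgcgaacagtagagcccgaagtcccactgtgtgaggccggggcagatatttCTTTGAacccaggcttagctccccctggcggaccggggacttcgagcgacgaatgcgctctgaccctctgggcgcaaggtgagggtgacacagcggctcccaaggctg
Dkk3, chr7:112180261-112180420: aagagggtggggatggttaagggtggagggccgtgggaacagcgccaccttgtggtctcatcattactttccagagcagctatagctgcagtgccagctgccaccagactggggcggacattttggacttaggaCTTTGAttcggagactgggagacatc
Dkk2, chr3:132084161-132084340: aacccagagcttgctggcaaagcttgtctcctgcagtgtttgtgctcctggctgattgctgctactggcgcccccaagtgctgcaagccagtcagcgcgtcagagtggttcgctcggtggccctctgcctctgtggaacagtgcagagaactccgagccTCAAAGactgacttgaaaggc
The Wnt11 site, in an intron 1.74 kb downstream of the first start, had 5.30 and 4.88, and its 3 shared footprints did not cover the core. The Dkk3 site had 4.47 in each replicate, and its footprints covered CTCF and SP/KLF letters and not the TCF/LEF core. The Dkk2 site, 1.04 kb upstream of the start, had 3.00 and 2.90, above the Dkk2 promoter, and held no shared footprint.

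The rest of the pathway was open at nearly every promoter. Of 58 other pathway genes 52 had a shared promoter site, again beside 63.7% of all genes. These were 9 of 9 co-receptors, 4 of 4 genes grouped under ligand secretion and 5 of 10 other secreted regulators and their partners. Receptor turnover had 2 of 2, the cytoplasm 15 of 15, the nucleus 10 of 10 and planar polarity 7 of 8. The ligand secretion group was Porcn, Wls, Tmed5 and Notum, of which Notum does not itself serve secretion. The medians were 11.3 and 11.2 for the cytoplasm and 3.16 and 2.09 for the other secreted regulators and their partners. The value of 2.09 also includes Sostdc1, which had a strict peak in replicate 2 only, so the medians of that group are over unlike sets. As with the members, the genes without a site were mostly those for secreted proteins: Sost, Ndp, Kremen2 and Draxin had no strict peak, nor had Celsr1 of planar polarity, and Sostdc1 had one of 0.425 in replicate 2 only. Kremen2 is a membrane receptor of Dkk proteins and Celsr1 a membrane cadherin, so not every one of them is secreted.

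By role, the leading co-receptors were Lgr4, the R-spondin receptor, with 11.5 and 12.0, and Ror1, a receptor of Wnt5a, with 8.18 and 8.05. In ligand secretion Tmed5 had 19.2 and 14.9 and Porcn, which attaches the lipid to Wnt proteins, 4.62 and 5.07. Among the other secreted regulators and their partners, Kremen1 had 14.7 and 12.4 and Apcdd1 5.95 and 5.34. The ligases Znrf3 and Rnf43, which remove Frizzled from the surface, had 11.4 and 9.97, and 2.73 and 1.89. In the cytoplasm Gsk3b, the kinase that marks beta-catenin for destruction, had 26.1 and 21.5 and Gsk3a 20.4 and 18.6. In the nucleus the co-repressors Tle1 and Tle3 had 28.8 and 22.9, and 19.6 and 16.4. Prickle1 had 9.65 and 8.74 and Celsr2 9.88 and 7.92.

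**Figure D5:**
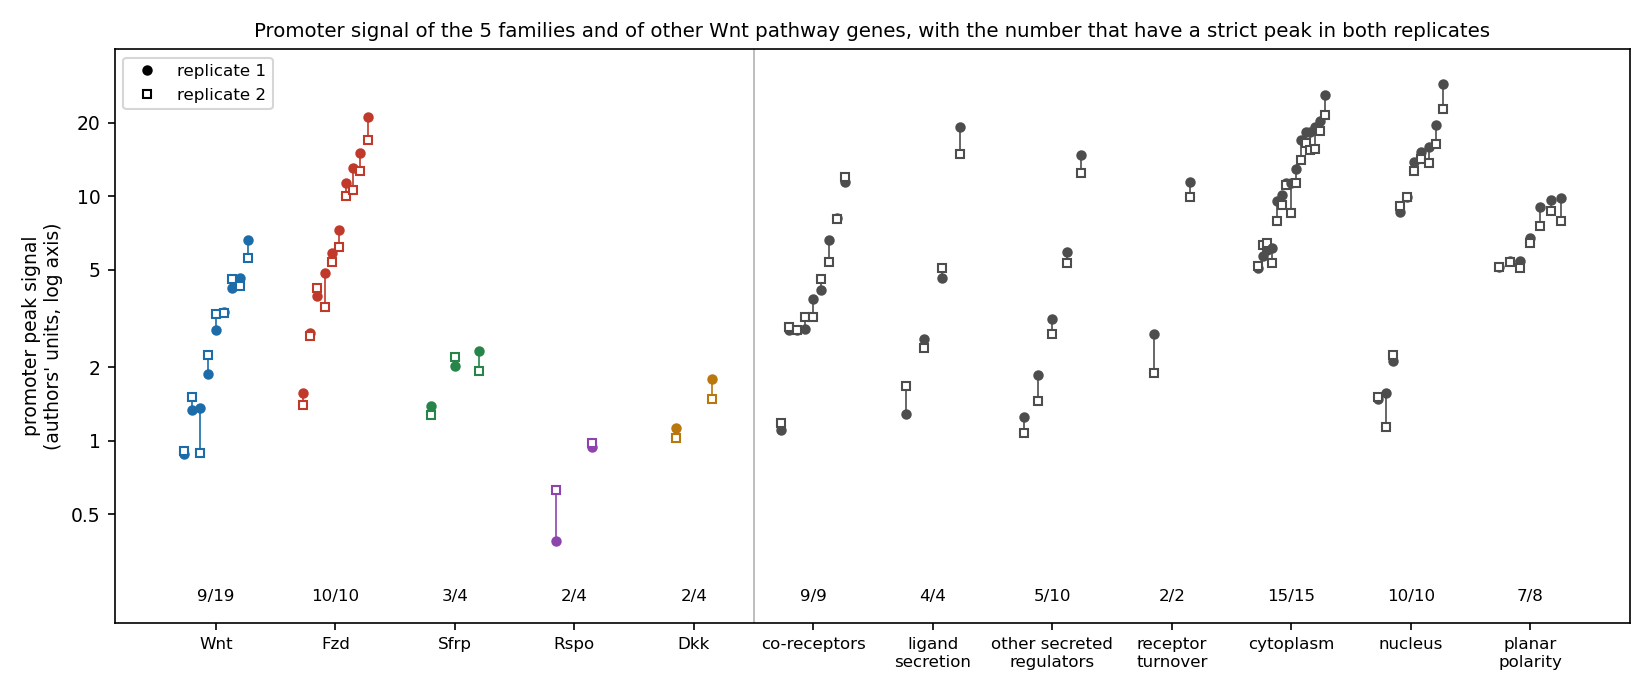
Promoter signal (log axis, authors' units) of the members by family, left of the line, and of 58 other pathway genes by role, right of it, each gene as a filled circle for replicate 1 joined to an open square for replicate 2. The counts at the foot are genes with a strict peak in both replicates out of all in the group, from 9 of 19 Wnt genes to 15 of 15 in the cytoplasm. The Fzd values span 1.56 to 21.1 in replicate 1, and no Wnt, Sfrp, Rspo or Dkk value passes 6.63.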

How the data were processed

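DNase-seq libraries of 2 replicates were analysed from files on mm10, per the labels. For each replicate the authors deposited a strict and a permissive peak list with a signal per peak, a footprint list with an FDR of 0.01 in each row, and per-base cut-rate q-values (FDR), listed only where below 0.05. Neither aligner nor caller was named: both were not given in the sources used here. Sequencing depth is likewise unknown. Peak numbers are given, but they need not follow depth, and counts carry no interval.

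Peaks overlapping by at least 1 bp were merged, and a shared site held a peak of each replicate, with the highest signal of each. GENCODE M21 gave the starts of 21938 protein-coding genes of the autosomes, X and Y. Coordinates are 1-based. A promoter value was that of the strongest strict peak within 1000 bp of any start, and medians and percentiles are over genes with such a peak. Composition and motifs were read from the reference genome, which lacks CAST variants. The merging and assignment steps were tested on simulated data (Python 3.11.15, numpy 2.4.6, pysam 0.24.0, bedtools 2.31.1).

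The members and the pathway, marker and motif lists were chosen with earlier results of these data known, so no list was tested. Every member was named, with values for each that had a strict promoter peak, the 3 strongest distal sites of each family, and, of the other pathway genes, the 2 strongest of each role and those with no strict promoter peak. The counts of promoter sites, distal sites and footprints were repeated with the permissive list, with only the stronger 50% of peaks and with each replicate alone. Promoter counts were also repeated with windows of 500 and 2500 bp and with protein-coding transcripts only, distal counts with reaches of 20 and 100 kb and nearest starts of any gene, and member site and footprint counts with 50% reciprocal overlap. Member promoter signals were repeated with summed peaks, the permissive list and both windows. A motif window of 200 bp was added for the motif count after the data had been seen.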

Additional observations from a re-analysis of the deposited data

How the results depend on the processing

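The count of members with a shared promoter site was 24 to 32 under every alternative except the stronger 50% of peaks. That alternative left 17 of the 26 and no Rspo or Dkk gene. All 10 Fzd genes were counted under each of the others and 9 under that one. Of all protein-coding genes 13975 were counted in the main setting, 12420 with the stronger 50% of peaks and 13585 to 14935 otherwise. Members thus lost a larger part of their count than all genes did with the stronger 50% of peaks. Shared distal sites of members numbered 195 with the permissive lists, 73 with the stronger 50% of peaks, 72 within 20 kb and 83 to 142 otherwise, apart from single replicates. With 1 replicate left out in turn, members with a promoter site numbered 26 to 28, other pathway genes 52 to 53, distal sites 137 to 158 and footprints 527 to 590. Summing all strict peaks moved the promoter signal of 18 of 26 members by more than the SD between replicates, the permissive lists moved none, and windows of 500 and 2500 bp moved 2 and 5. The TCF/LEF core was in 12 sites with a window of 200 bp, chosen after seeing the data, against 10. No paired analysis was possible because the series has 1 group. The number of replicates and the unstated signal scaling limit the precision of every value.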
